A study of Rattus norvegicus with 24 samples.

Results

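Fructose and glucose media were compared in rat pulmonary microvascular endothelial cells (PMVECs) that had lost Pfkfb3 and were kept in hypoxia. The comparison took the 3 libraries labelled Pfkfb3 knockout (KO), hypoxia and fructose against the 3 labelled KO, hypoxia and glucose, 6 of the 24 libraries of the study, and covered every gene with enough counts. The KO hypoxia fructose cells stood in 25 mM fructose and the KO hypoxia glucose cells in 25 mM glucose, each for 24 h. The other 18 libraries, of which the 6 WT hypoxia and the 6 KO normoxia libraries are used below, differ in genotype (KO or wild type, WT) or oxygen and were made with the same sugar doses and time. By its title, the study concerns the part of the enzyme PFKFB3 in the use of fructose by these cells. Each group had 1 sugar only, so a response to fructose below means fructose in place of glucose. The cells are labelled as a cell line, and the sources used here give neither the oxygen level nor the altered part of Pfkfb3 nor the number of KO clones. The labels number the libraries of a group but do not call them separate cultures, so the p-values measure a spread between libraries that may be technical. That spread was estimated over all 24 libraries in their 8 groups, not from the 6 compared here alone.

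PFKFB3 makes fructose 2,6-bisphosphate, the strongest activator of phosphofructokinase-1 and so of glycolysis, and endothelial cells depend on it for much of their glycolytic flux. Fructose enters cells mainly through the transporter GLUT5 and can be phosphorylated by ketohexokinase, which joins glycolysis below the phosphofructokinase step. Cholesterol and fatty acids are both built from cytosolic acetyl-CoA, and the genes of these routes are switched on together by the SREBP transcription factors when sterols in the endoplasmic reticulum (ER) are low.

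RNA was counted per gene. Levels are in CPM (counts per 1000000 counts of the library), changes are log2 fold changes of fructose over glucose ± standard error, and every adjusted p is the Benjamini-Hochberg value of edgeR's quasi-likelihood test over 14770 genes, with a threshold of 0.05. A gene that passed is said to have risen or fallen. The 6 libraries held 16655778 to 23028807 counts, with the lowest and the highest both among the fructose libraries. Mitochondrial genes took 1.61 to 2.95% of the fructose libraries and 1.41 to 3.28% of the glucose libraries, and library 3 was the highest in both groups. Pfkfb3 itself (chromosome 17, 70684134 to 70713726 in Rnor_6.0) was still read in the KO cells. It stood at 53.4, 62.8 and 56.2 CPM in KO hypoxia fructose and 45.5, 42.4 and 48.1 CPM in KO hypoxia glucose, against 143, 159 and 149 CPM in WT hypoxia fructose and 63.7, 66.9 and 79.6 CPM in WT hypoxia glucose. Every KO library was below every WT library, and with the altered part of the gene unknown here the counts test the label only partly.

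Endothelial markers were mostly low in these cells. Of 19 matched endothelial genes, 10 stayed under 1 CPM in all 6 libraries and 5 of those had no count at all, Cldn5, Emcn, Robo4, Sox17 and Sox18. Cdh5, which encodes VE-cadherin, stood at 0.42, 0.304 and 0.286 CPM with fructose and at 0.431, 0.436 and 0.323 CPM with glucose, too low to be tested. Vwf, the clotting factor carrier of endothelium, averaged 55.1 CPM with fructose and 56.0 CPM with glucose, and Flt1, a VEGF receptor, 120 CPM and 144 CPM in the same order.

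Fructose changed a limited part of the transcriptome of KO cells in hypoxia. Of the 14770 genes tested, 801 passed (5.42%), with 398 higher (2.69%) and 403 lower (2.73%). At least 2-fold changes were seen in 122 genes (0.826%), of which 82 were higher (0.555%) and 40 lower (0.271%). The genes that rose had a median size of change of 0.50 and those that fell 0.43 on the log2 scale. Protein-coding genes made up 91.7% of the genes that rose and 95.3% of those that fell, beside 84.2% of all genes tested. In WT cells under the same hypoxia, 6720 genes passed (45.5%), 3635 higher (24.6%) and 3085 lower (20.9%). The count of 801 was lower in each omission of a library. It was 532, 635 and 525 without fructose library 1, 2 and 3, and 524, 455 and 564 without glucose library 1, 2 and 3. Each omission also leaves fewer libraries for the test, and the cause of the lower counts was not tested. With the replicate number as a block 1543 genes passed, 799 of the 801 among them. In each of the 6 omissions of a library 335 of the 801 passed, and none of the 801 turned its sign in any of them.

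The cholesterol pathway rose as a list. All 23 tested genes of a list of sterol synthesis and uptake genes rose, with a median of 1.12 beside 0.00 over all genes tested, and in each of them the 3 fructose libraries lay above the 3 glucose libraries. Such a separation was seen in 12.4% of all genes tested. The summed level of the list was 8398 to 9221 CPM in the fructose libraries and 4192 to 4727 CPM in the glucose libraries. The same list passed in 8 higher and 3 lower in WT hypoxia and in 18 higher and 0 lower in KO normoxia, where 1.79% of all genes passed.

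The pathway begins with the mevalonate steps. Hmgcs1, the synthase that makes HMG-CoA (chromosome 2, 52431601 to 52445055 in Rnor_6.0), stood at 601, 541 and 655 CPM in KO hypoxia fructose, against 209, 190 and 234 CPM in KO hypoxia glucose. Every fructose library was far above every glucose library, and the rise was 1.51 ± 0.0975, or 2.84-fold (adjusted p = 7.32e-10). The kinases and the decarboxylase that follow rose as well, Mvk by 0.73 ± 0.098, Pmvk by 1.11 ± 0.131 and Mvd by 1.47 ± 0.118. Mvd stood at 153, 156 and 152 CPM with fructose and 54.1, 55.6 and 57.1 CPM with glucose, with little spread within either sugar. Idi1, the isomerase that makes the second isoprene unit, rose by 1.28 ± 0.136, and Fdps, the synthase of farnesyl diphosphate, by 0.94 ± 0.0883.

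The steps from squalene to lanosterol moved in the same direction. Fdft1, the squalene synthase, stood at 216, 211 and 237 CPM with fructose and at 111, 115 and 134 CPM with glucose. Sqle, the squalene epoxidase and a second control point of the pathway, stood at 534, 511 and 571 CPM with fructose and at 245, 221 and 276 CPM with glucose, a rise of 1.12 ± 0.0871 (adjusted p = 5.21e-09). Lss, the cyclase that folds the chain into lanosterol, rose by 1.27 ± 0.0877 (adjusted p = 1.16e-09), with 198, 193 and 207 CPM against 76.9, 78.2 and 93.9 CPM. In none of these 3 genes did the libraries of the sugars overlap.

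Lanosterol is turned into cholesterol by demethylation, reduction and isomerisation. Cyp51, the lanosterol demethylase, stood at 927, 845 and 986 CPM with fructose and at 368, 357 and 411 CPM with glucose. Msmo1, the sterol methyl oxidase that follows, stood at 1082, 1051 and 1170 CPM with fructose and at 425, 404 and 481 CPM with glucose, a rise of 1.34 ± 0.0943. Tm7sf2, a sterol reductase, had the largest change of the list, 2.11 ± 0.229, with 28.5, 26.3 and 29.7 CPM against 5.98, 4.84 and 8.78 CPM. Nsdhl (1.31), Hsd17b7 (1.53), Ebp (0.90), Sc5d (1.33) and the reductase gene Dhcr7 (1.37) rose as well. Dhcr7 held 113, 111 and 111 CPM with fructose and 38.4, 41.3 and 49.9 CPM with glucose.

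The list also held regulators of the pathway and a sterol carrier. Insig1, which holds SREBPs in the ER and is itself a sterol-repressed gene, rose by 0.89 ± 0.0975, and Stard4, a carrier of sterols between membranes, by 0.58 ± 0.0847. Srebf2, which encodes SREBP2, the main activator of the pathway, had the smallest rise, 0.26 ± 0.0612 (adjusted p = 0.0109). It was the 1 member that did not pass in every omission of a library, being lost without fructose library 1 (adjusted p = 0.0655) or glucose library 1 (0.0576). The other 22 passed in all 6 omissions.

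**Figure D1:**
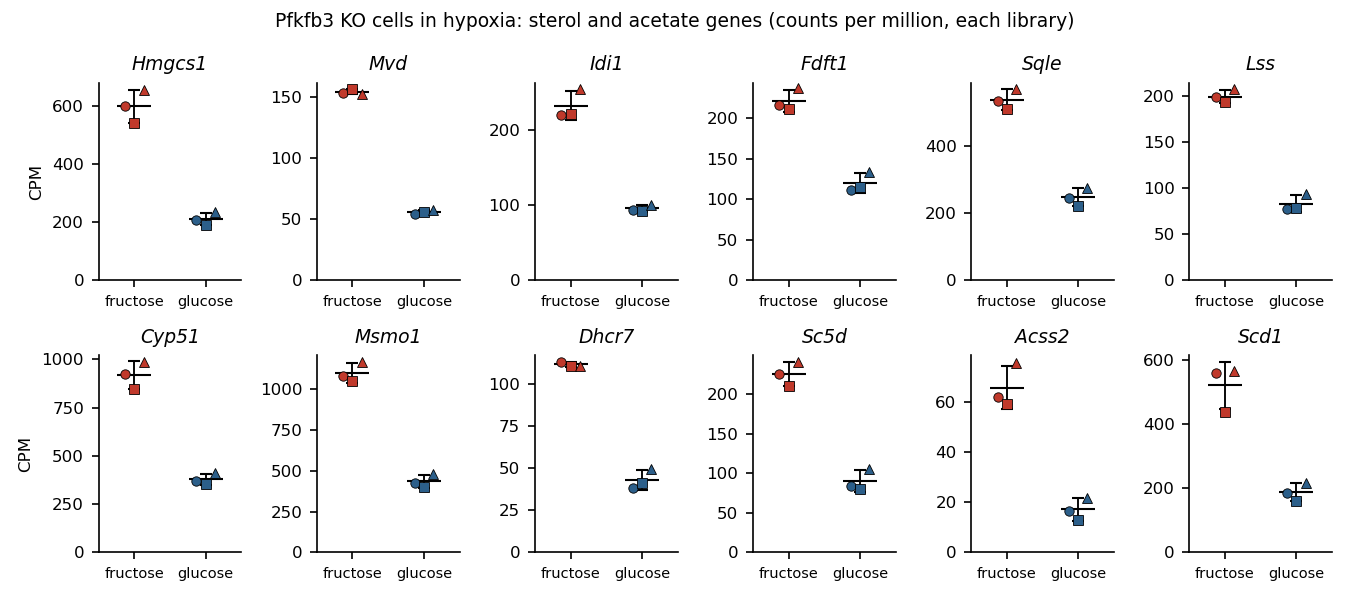
Levels in CPM (linear axes from 0) of 10 sterol genes, Acss2 and Scd1 in each KO hypoxia library, fructose left of glucose. Circles, squares and triangles are libraries 1, 2 and 3, and bars give mean ± SD (n = 3). In every panel the 3 fructose libraries lie above the 3 glucose libraries, as with Hmgcs1 at 541 to 655 CPM with fructose and 190 to 234 CPM with glucose.

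Promoter windows of these genes are shown because the members moved together. Of the 23 genes, 16 had a window in the RefSeq table of the GRCr8 assembly, which runs from 250 bases before to 50 bases after the start of the gene and holds 33469 windows. The windows of the 3 sterol genes with the smallest p-values among these 16 are printed 5′ to 3′ on the strand of the gene, followed by that of Hspa5, an ER chaperone gene that did not pass in KO hypoxia. Capitals mark CCAAT on either strand, the letters bound by NF-Y, a factor that often works beside SREBP and the ER stress factors, and in Hspa5 also the ER stress element.
Hmgcs1, chr2:53382054-53382353 in GRCr8, plus strand: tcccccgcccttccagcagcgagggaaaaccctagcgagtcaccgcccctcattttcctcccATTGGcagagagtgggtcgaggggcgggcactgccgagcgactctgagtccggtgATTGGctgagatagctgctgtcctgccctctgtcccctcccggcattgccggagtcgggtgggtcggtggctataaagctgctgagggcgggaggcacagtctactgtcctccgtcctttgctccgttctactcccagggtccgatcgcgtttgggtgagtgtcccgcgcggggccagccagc
Lss, chr20:12118181-12118480 in GRCr8, minus strand: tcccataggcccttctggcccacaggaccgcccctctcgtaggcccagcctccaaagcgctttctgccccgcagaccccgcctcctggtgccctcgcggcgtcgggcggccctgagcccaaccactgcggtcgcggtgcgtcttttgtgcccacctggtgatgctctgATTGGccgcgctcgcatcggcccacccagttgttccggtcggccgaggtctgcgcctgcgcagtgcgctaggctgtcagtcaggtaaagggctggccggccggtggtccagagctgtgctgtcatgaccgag
Msmo1, chr16:29746863-29747162 in GRCr8, plus strand: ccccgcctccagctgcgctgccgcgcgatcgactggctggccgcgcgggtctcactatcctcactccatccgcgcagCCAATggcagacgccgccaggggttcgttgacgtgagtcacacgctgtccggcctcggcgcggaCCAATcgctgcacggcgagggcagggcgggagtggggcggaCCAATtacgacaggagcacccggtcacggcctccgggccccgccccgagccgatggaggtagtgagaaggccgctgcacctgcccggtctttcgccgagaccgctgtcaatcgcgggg
Hspa5, chr3:38452766-38453065 in GRCr8, plus strand: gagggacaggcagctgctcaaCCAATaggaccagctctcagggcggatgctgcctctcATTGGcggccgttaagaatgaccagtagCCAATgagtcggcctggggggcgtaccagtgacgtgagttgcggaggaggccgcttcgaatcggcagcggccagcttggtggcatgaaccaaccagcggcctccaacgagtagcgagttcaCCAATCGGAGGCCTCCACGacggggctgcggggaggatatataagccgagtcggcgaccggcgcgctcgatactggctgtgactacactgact

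The Hmgcs1 window held CCAAT 2 times, Lss 1 time and Msmo1 3 times. Over the list, 14 of 16 windows held it, and the windows without it were those of Cyp51 and Dhcr7. Among all windows 37.5% held CCAAT, and among the 8878 windows of tested genes 38.1%. The sterol element core TCACNCCAC was found in 0 of the 16 windows and in 1.12% of all windows, searched on both strands. The ER stress element, CCAAT and CCACG separated by any 9 bases, was in 0 of the 16 sterol windows. It was in 7 of 14 windows of tested ER chaperone genes, and all 14 of those held CCAAT, beside 0.0657% of all windows for the ER stress element. Each ER stress element holds a CCAAT, so these counts overlap. Both the sterol element core and the ER stress element are so rare among all windows that 0 of 16 does not set the sterol windows apart. These matches describe letters in a short window and do not show binding. A missing match does not show that a gene lacks such a site.

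Acetyl-CoA supply and fatty acid synthesis rose in part. Of 13 tested genes of fatty acid synthesis 8 rose and 0 fell, with a median of 0.50, while 2.69% of all genes tested rose. Acss2, which makes cytosolic acetyl-CoA from acetate, stood at 62.1, 59.2 and 75.4 CPM with fructose and at 16.4, 13.1 and 21.8 CPM with glucose, the groups being far apart (1.94 ± 0.151, adjusted p = 5.21e-09). Acly, which makes it from citrate, stood at 1002, 999 and 1050 CPM with fructose and at 527, 521 and 513 CPM with glucose (0.97 ± 0.0681, adjusted p = 1.16e-09). Slc25a1, the mitochondrial citrate carrier, rose by 0.47 ± 0.0742. Acat2, the cytosolic thiolase that joins 2 acetyl-CoA units and opens the sterol route, stood at 338, 277 and 307 CPM with fructose and at 103, 97 and 115 CPM with glucose (1.55 ± 0.149).

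The enzymes that build and modify fatty acids differed among themselves. Fasn, the fatty acid synthase, rose by 0.79 ± 0.135, with 445, 488 and 497 CPM against 240, 294 and 294 CPM. Acaca, the carboxylase before it, did not pass (0.28 ± 0.099, adjusted p = 0.108), although its 3 fructose libraries lay above the 3 glucose libraries. It passed with the replicate block (adjusted p = 0.0351) and with the 6 libraries alone (0.043). The desaturases rose, Scd1 with 557, 436 and 565 CPM against 186, 161 and 216 CPM (1.47 ± 0.125) and Scd2 by 0.70 ± 0.0864. Fads2, a desaturase of polyunsaturated fatty acids, rose by 0.43 ± 0.0949, a call lost without fructose library 3 (adjusted p = 0.064). NADPH for both routes is made among others by Me1, Idh1 and G6pdx, which rose by 0.50 ± 0.0936, 0.78 ± 0.086 and 0.48 ± 0.0726. Srebf1, which encodes the SREBP of fatty acid synthesis, was at 94.6 CPM with fructose and 92.8 CPM with glucose and did not pass (0.03, adjusted p = 0.893). Among genes of phospholipid and lipid handling, Lpin1, a phosphatidate phosphatase, rose by 1.18 ± 0.201 and Pcyt2, of phosphatidylethanolamine synthesis, by 0.72 ± 0.105. Acsl3, an acyl-CoA synthetase of lipid droplets, rose by 0.56 ± 0.0852.

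Ranks by size of change covered genes whose fructose and glucose libraries did not overlap and whose mean log2 CPM was at least 1. Genes with a predicted-locus, clone or Ensembl name were left out of the ranks. Over all genes that passed, the size of change reached 5.94 in rises and 5.67 in falls, and 44 of 1495 unannotated loci passed. Within these limits and outside lipid synthesis, the genes with the largest rises formed no single list. Cfap70, a protein of the ciliary axoneme, stood at 20, 16.7 and 21.4 CPM in KO hypoxia fructose, against 1.34, 0.775 and 2.53 CPM in KO hypoxia glucose, a rise of 12.6-fold (3.65 ± 0.483, adjusted p = 4.28e-05). Its groups lay far apart in KO cells, while in WT hypoxia no library held more than 0.234 CPM. Unc13a, a vesicle priming protein of nerve terminals, stood at 7.08, 7.64 and 10.1 CPM with fructose and at 1.82, 2.81 and 3.18 CPM with glucose (1.67 ± 0.269). Avil, the actin-binding advillin, rose by 1.54 ± 0.166, Star, the carrier of cholesterol into mitochondria, by 1.87 ± 0.323 and Gucy2g, a receptor guanylyl cyclase, by 1.71 ± 0.293. Star was low, at 3.54, 3.69 and 2.98 CPM with fructose and 0.91, 1.07 and 0.808 CPM with glucose. Ccl2, a chemokine for monocytes, rose by 1.07 ± 0.19. Star, Gucy2g and Avil also rose in WT hypoxia, by 3.64, 2.62 and 3.75. Dnmt3b, a DNA methyltransferase, passed with 8.95, 8.55 and 7.27 CPM against 4.69, 2.08 and 0.539 CPM (1.74 ± 0.476, adjusted p = 0.0315). Dnmt3b did not pass without fructose library 1 (adjusted p = 0.087), 2 (0.0703) or 3 (0.0571) or glucose library 2 (0.135) or 3 (0.0925). Nor did it pass with the 6 KO hypoxia libraries alone (0.244). Cyp1b1, a cytochrome P450 induced by the aryl hydrocarbon receptor, stood at 234, 235 and 261 CPM with fructose and at 123, 27.6 and 40.4 CPM with glucose (1.93, adjusted p = 0.0102). Its glucose libraries were widely spread, and it did not pass without glucose library 3 (adjusted p = 0.0553) or with the 6 KO hypoxia libraries alone (0.222). Adh7, an alcohol dehydrogenase of retinol, rose by 1.58, with 22, 20.4 and 26.8 CPM against 12.7, 5.33 and 4.9 CPM, and did not pass with the 6 libraries alone (adjusted p = 0.0914). Cyp1b1 and Adh7 also rose in WT hypoxia, by 1.87 and 1.39, and in KO normoxia, by 3.13 and 2.27. Cfap70 and Avil rose in KO normoxia as well, by 2.91 and 0.80.

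Among the genes that fell with fructose were some keratin and junction genes, the junction genes being picked after their values were seen. Krt7, a keratin of simple epithelia, stood at 13.3, 15.2 and 15.6 CPM in KO hypoxia fructose, against 40.1, 44.8 and 41.4 CPM in KO hypoxia glucose, and no library of one sugar came near the other (-1.52 ± 0.123, adjusted p = 9.9e-09). Krt14, a keratin of basal epithelia, stood at 28, 25.6 and 23.9 CPM with fructose and at 47.1, 57.1 and 56.7 CPM with glucose (-1.05 ± 0.112). Of 15 keratin genes tested, a family picked after the values were seen, 3 fell and 0 rose, the third being Krt13 (-1.06 ± 0.292). Among all genes tested 2.73% fell. The Krt13 call was lost without fructose library 2 (adjusted p = 0.0747) or 3 (0.149) or glucose library 1 (0.0574), 2 (0.133) or 3 (0.0573). Krt8, a keratin of simple epithelia that is also an epithelial marker, did not pass (0.21 ± 0.115, adjusted p = 0.354). It averaged 2711 CPM with fructose and 2338 CPM with glucose, above every other keratin tested. Cldn15, a claudin that forms cation channels in tight junctions, stood at 35.8, 37.3 and 39.2 CPM with fructose and at 69.6, 76.6 and 84.5 CPM with glucose (-1.04 ± 0.104, adjusted p = 3.5e-07). Of 7 claudins tested it was the 1 that fell and 0 rose, with Cldn12 at 0.10 and Cldn18 at 0.70 not passing. Cgn and Cgnl1, which encode the junction plaque proteins cingulin and paracingulin, fell by 0.99 ± 0.166 and 0.78 ± 0.0757. In Krt7, Krt14, Krt13, Cldn15, Cgn and Cgnl1 the fructose libraries lay below the glucose libraries, as they did in 12.2% of all genes tested. The ranks took only genes with separate groups, and the junction genes were picked by their values, so this separation is no further result. Krt7, Krt14 and Cldn15 also fell in WT hypoxia, by 1.89, 0.67 and 0.32, and in KO normoxia, by 1.14, 0.82 and 0.80.

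Some single genes of the contractile cytoskeleton fell, picked after their values were seen and not as a list. Of 4 tropomyosins 2 fell, Tpm1 and Tpm4 (adjusted p of Tpm4 = 0.0334, edgeR), and 0 rose, and of 2 calponins 1 fell, with Cnn3 at 0.11 and not passing. Among all genes tested 2.73% fell. Tpm1, a tropomyosin, stood at 159, 153 and 170 CPM with fructose and at 220, 230 and 232 CPM with glucose (-0.50 ± 0.059, adjusted p = 3.33e-06). Smtn, the smooth muscle protein smoothelin, stood at 78.2, 78.6 and 77.4 CPM with fructose and at 121, 120 and 128 CPM with glucose (-0.66 ± 0.0644). Cnn2, a calponin, fell by 0.76 ± 0.103 in KO hypoxia and rose by 0.57 ± 0.102 in WT hypoxia. Pdlim2, an actin-linked adaptor, fell by 0.82 ± 0.109 and Tnnc1, a troponin, by 1.06 ± 0.179. Tnnc1 fell further in WT hypoxia, by 2.33. Myl9, a myosin light chain, stood at 2.22, 1.61 and 3.26 CPM with fructose and at 5.07, 4.94 and 4.69 CPM with glucose (-1.06 ± 0.26, adjusted p = 0.0142). Its call was lost without fructose library 1 (adjusted p = 0.0585) or 2 (0.0876) or glucose library 1 (0.0504) or 2 (0.0505). In WT hypoxia Myl9 rose instead, by 2.16. Markers of other cell types moved unevenly beside these genes. Of 7 tested markers of smooth muscle cells and pericytes 1 rose (Des) and 0 fell, and their summed level was 287 to 298 CPM with fructose and 254 to 266 CPM with glucose. Acta2, the smooth muscle actin, averaged 9.15 CPM with fructose and 6.23 CPM with glucose, and Rgs5 had no count in any of the 6 libraries. Of 5 tested lung epithelial markers 0 passed by edgeR, with a summed level of 2496 to 2864 CPM with fructose and 2069 to 2611 CPM with glucose, and Sftpb, Nkx2-1 and Scgb1a1 had no count. In such bulk samples fewer cells of a type and less RNA per cell cannot be told apart.

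Of 16 genes of YAP and TEAD signalling, which links cell shape to transcription, 4 fell and 0 rose, with a median of -0.22. Of all genes tested, 2.73% fell and 2.69% rose in KO hypoxia. In WT hypoxia 7 of the 16 fell and 2 rose, while 20.9% of all genes tested fell and 24.6% rose. Ctgf, a secreted matrix protein and classic YAP target, stood at 91.2, 65.8 and 77.3 CPM with fructose and at 167, 159 and 148 CPM with glucose (-1.02 ± 0.123, adjusted p = 7.08e-06). Tead4, one of the DNA-binding partners of YAP, stood at 21.4, 18.8 and 18 CPM with fructose and at 40.8, 39.2 and 36.6 CPM with glucose (-1.01 ± 0.11). Tead1, another partner, fell by 0.44 ± 0.0969 and Amotl2, an angiomotin that holds YAP at junctions, by 0.42 ± 0.0796. All 4 passed in each omission of a library. Of 22 growth factor and IGF genes 4 fell and 0 rose. Igfbp6, which binds IGF2, fell by 0.59 ± 0.105 and Tgfb2 by 0.51 ± 0.103, while Pdgfa and Tgfb3 fell but did not pass in every omission. Pdgfa did not pass without fructose library 2 (adjusted p = 0.0675). Tgfb3 did not pass without fructose library 1 (0.058) or 3 (0.093) or glucose library 1 (0.0667) or 2 (0.136). Among the other ranked genes with the largest falls, Deptor, an inhibitor of mTOR, fell by 1.19, Gas1, a membrane protein of growth arrest, by 1.08 and Ccdc64 by 1.05. Deptor, Gas1 and Ccdc64 also fell in WT hypoxia, by 1.24, 1.15 and 1.15. Acsbg1, an acyl-CoA synthetase, fell by 1.21 (adjusted p = 0.0311), a call lost without fructose library 1 (0.0891), 2 (0.0883) or 3 (0.0892) or glucose library 2 (0.198) or 3 (0.053). Outside the lists, Fgf1 fell by 0.79 ± 0.118 and Wnt4 by 0.65 ± 0.105. Col1a1, the main fibrillar collagen, stood at 2015, 1777 and 2012 CPM with fructose and at 2522, 2624 and 2731 CPM with glucose (-0.44 ± 0.0883). It was the one fibroblast marker of 3 tested that fell, and Lum and Dpt had no count. The part of the other cell types' markers in these falls was not tested.

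**Figure D2:**
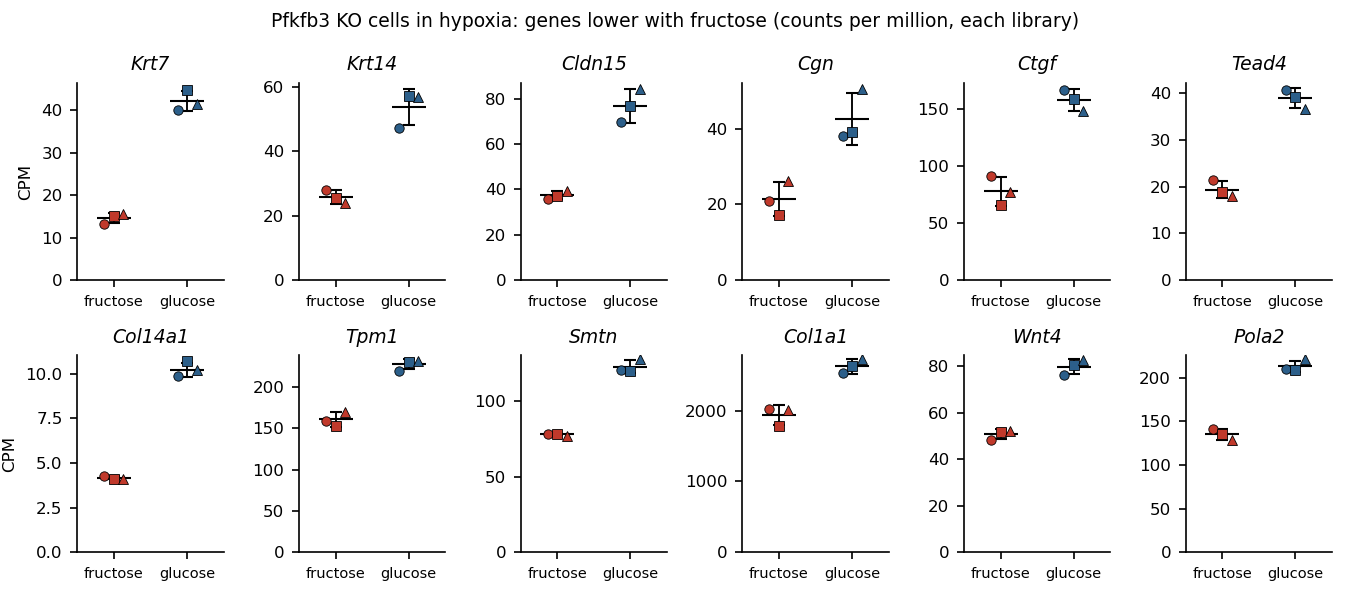
Levels in CPM (linear axes from 0) of 12 genes that fell with fructose in each KO hypoxia library, fructose left of glucose. Symbols are libraries 1 to 3 and bars give mean ± SD (n = 3). In every panel the fructose libraries lie below the glucose libraries, as with Krt7 at 13.3 to 15.6 CPM with fructose and 40.1 to 44.8 CPM with glucose.

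Whether KO cells respond unlike WT cells was tested as the difference of the 2 responses in hypoxia. It passed in 3785 genes (25.6%), 1585 with a more positive response in KO (10.7%) and 2200 with a more negative one (14.9%). Of the 801 genes that passed in KO hypoxia, 572 passed in WT hypoxia in the same direction, which is 71.4% of the KO genes and 8.51% of the WT genes. A further 49 passed in both with opposite signs and 180 did not pass in WT. The genes called in KO had a median size of change of 0.46 in KO and 0.63 in WT.

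A response of KO cells without one of WT cells was seen in 91 genes, which passed in KO hypoxia and in the difference but not in WT hypoxia, 51 of them higher and 40 lower with fructose in KO. That a gene missed the threshold in WT does not show that it was flat there. The highest of these, under the limits given above for ranked genes, were Cfap70, Acss2, Unc13a, Hsd17b7, Scd1, Mvd, Dhcr7 and Sc5d, 5 of the 8 being genes of sterol synthesis or desaturation. Acss2 averaged 65.6 ± 8.6 CPM in KO hypoxia fructose and 17.1 ± 4.42 CPM in KO hypoxia glucose, and 13.2 ± 1.56 CPM in WT hypoxia fructose and 17.4 ± 1.28 CPM in WT hypoxia glucose (SD, n = 3 each). Its responses differed by 2.16 ± 0.214 (adjusted p = 9.16e-08). The difference for Cfap70, 3.74 ± 1.31 (adjusted p = 0.0395), was not called without KO fructose library 1 (0.0536) or 3 (0.0552), KO glucose library 1 (0.0608) or 2 (0.055), WT fructose library 2 (0.0634) or 3 (0.0775), or WT glucose library 1 (0.332) or 3 (0.0861).

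The lowest of the 91 under the same limits were Col14a1, B3gnt7, Slc24a3, Arnt2, Rassf7, Aif1l, Klhl30 and Rgs7bp. Col14a1, a fibril-associated collagen, stood at 4.26, 4.13 and 4.12 CPM in KO hypoxia fructose and at 9.86, 10.7 and 10.2 CPM in KO hypoxia glucose, and averaged 24.2 ± 4.51 CPM in WT hypoxia fructose and 29.8 ± 4.86 CPM in WT hypoxia glucose. The KO libraries of the sugars were wide apart and the responses differed by -1.18 ± 0.197 (adjusted p = 7.54e-05). Aif1l, an actin-binding protein, stood at 191, 180 and 174 CPM in KO hypoxia fructose and at 294, 307 and 284 CPM in KO hypoxia glucose (-0.70 ± 0.0786, against 0.13 in WT). Klhl30 (-0.65), B3gnt7, a glycosyltransferase (-1.27), Slc24a3, a sodium-calcium exchanger (-1.15), and Rassf7 (-0.78) fell in KO and passed there in every omission. The falls of Arnt2 (-0.82), a partner of bHLH-PAS factors, and Rgs7bp (-0.64) did not pass in every omission. Arnt2 was lost without fructose library 2 (adjusted p = 0.0543) or 3 (0.108) or glucose library 1 (0.0635) or 3 (0.0523), and Rgs7bp without fructose library 3 (0.0686). Their differences from WT were also lost under several alternatives, with adjusted p up to 0.157 for Arnt2 and 0.0965 for Rgs7bp.

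**Figure D3:**
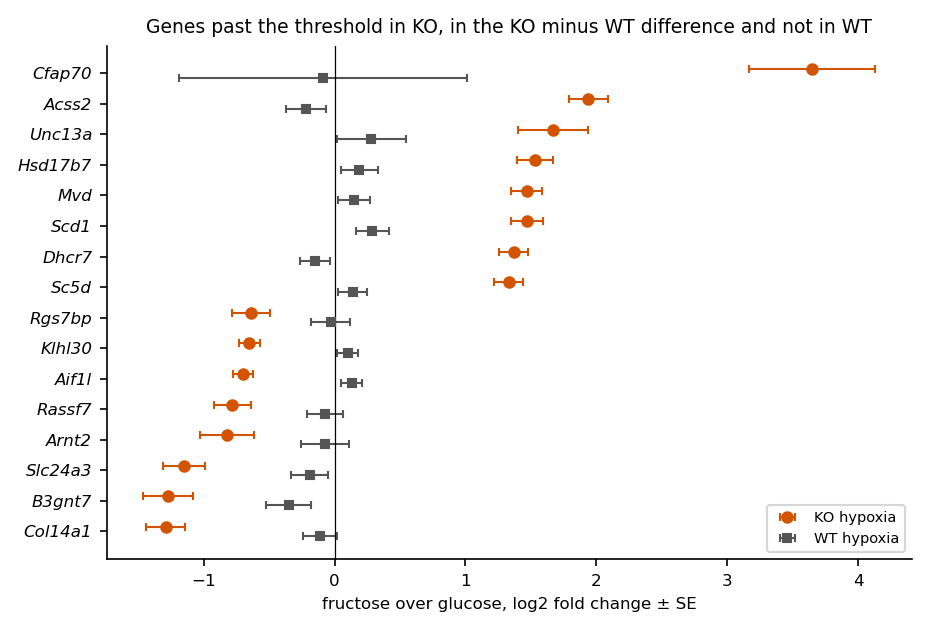
Log2 fold change of fructose over glucose ± standard error of 16 genes that passed in KO hypoxia (circles) and in the KO minus WT difference and not in WT hypoxia (squares). KO values run from -1.29 for Col14a1 to 3.65 for Cfap70, while WT values lie between -0.35 and 0.29.

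The sterol genes differed between genotypes as a group. In the difference, 22 of 23 had a more positive response in KO and 0 a more negative one, with a median of 0.94 beside -0.01 over all genes tested. For Hmgcs1 the direction was opposite. It averaged 69.8 ± 7.38 CPM in WT hypoxia fructose and 107 ± 3.62 CPM in WT hypoxia glucose, a fall of 0.43 ± 0.0984, against the rise of 1.51 in KO, and the responses differed by 1.93 ± 0.138 (adjusted p = 5.25e-10). Acat2, Fdft1, Stard4, Acsl3 and Fads2 also rose in KO hypoxia and fell in WT hypoxia, where their values were -0.58, -0.39, -0.24, -0.28 and -1.02. They and Hmgcs1 were among 22 genes that rose in KO and fell in WT, while 27 did the reverse. Msmo1 rose in both, by 1.34 in KO and 0.88 in WT, and its responses differed by 0.46 ± 0.133 (adjusted p = 0.0128). Ebp also differed (0.47, adjusted p = 0.0451), though not in 8 of 12 omissions of a library, whose adjusted p reached 0.142.

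The pathway lists are read against the share of all genes that passed, 5.42% in KO hypoxia and 45.5% in WT hypoxia, so fewer calls in KO are common to most genes. ER chaperones passed in 17 higher of 17 in WT hypoxia (median 1.57) and in 1 higher of 17 in KO hypoxia (median 0.03), and all 17 differed between the genotypes. Hspa5, which encodes the chaperone BiP, stood at 1356, 1353 and 1384 CPM in KO hypoxia fructose and at 1213, 1315 and 1225 CPM in KO hypoxia glucose, with no overlap between the sugars and a narrow gap (0.12 ± 0.156, adjusted p = 0.765). In WT hypoxia it stood at 4370, 4429 and 3173 CPM with fructose and at 801, 868 and 761 CPM with glucose (2.49 ± 0.165), and the responses differed by -2.36 ± 0.224. Hsp90b1, the ER form of HSP90, averaged 1545 ± 58.1 CPM with fructose and 1517 ± 44 CPM with glucose in KO hypoxia (SD, n = 3 each). In WT hypoxia it averaged 5692 ± 445 CPM with fructose and 1567 ± 69.3 CPM with glucose. Dnajb9, a BiP co-chaperone, was the one that passed in KO (0.40 ± 0.0912), and not without fructose library 3 (adjusted p = 0.0683) or glucose library 1 (0.0671).

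Other stress and growth lists are given by the same counts. Of 12 unfolded protein response sensors and factors 2 rose in KO and 10 in WT. The KO calls were Atf6 (0.44), lost without fructose library 1 (adjusted p = 0.0528) or glucose library 1 (0.0791) or 3 (0.0745), and Ern1 (0.35), lost without fructose library 2 (0.11) or 3 (0.154) or glucose library 1 (0.243) or 2 (0.103). Of 22 ATF4 amino acid response genes 3 rose in KO and 18 in WT, and of 20 cytosolic tRNA synthetases 1 rose in KO, Sars (0.43 ± 0.0878), and 13 in WT. Most values of both lists were positive in KO, 21 of 22 and 19 of 20, and in 12 genes of each list all fructose libraries lay above all glucose libraries, beside 12.4% of all genes tested. Slc7a11, the cystine transporter of the ATF4 list, stood at 51.1, 59.8 and 47 CPM with fructose and at 22.1, 27.6 and 28.6 CPM with glucose in KO cells, clearly apart (1.02 ± 0.195). Asns, the asparagine synthetase, passed by 0.50 ± 0.138 (adjusted p = 0.0336) but in none of the 6 omissions, with adjusted p = 0.0665 to 0.138. Ddit3, the stress factor CHOP, did not pass (0.33 ± 0.129, adjusted p = 0.162). The 29 cytosolic ribosomal proteins held 27 that rose in WT and 0 that passed in KO (median -0.03), with Rpl3 at -0.12 ± 0.081 in KO and 0.58 in WT. Of 23 DNA replication genes all 23 fell in WT (median -1.23) and 3 in KO (median -0.28), and over the omissions the KO count was 0 to 2. In 20 of the 23 the KO fructose libraries all lay below the KO glucose libraries. Pola2, a subunit of the replicative primase complex outside that list, fell in both, with 141, 136 and 129 CPM against 210, 209 and 221 CPM in KO (-0.66 ± 0.0762) and by 1.16 in WT. Mitosis genes passed in 0 of 21 in KO and in 20 lower in WT. In KO their median was -0.17, 1 of the 21 was positive, and in 13 the fructose libraries all lay below the glucose libraries, beside 12.2% of all genes tested. Proteasome subunits passed in 0 of 25 in KO and in 18 lower in WT. Of 22 HIF targets 2 rose in KO and 17 in WT, and Vegfa, the endothelial growth factor, stood at 531, 544 and 534 CPM with fructose and at 406, 345 and 407 CPM with glucose in KO (0.48 ± 0.102, against 1.29 in WT).

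**Figure D4:**
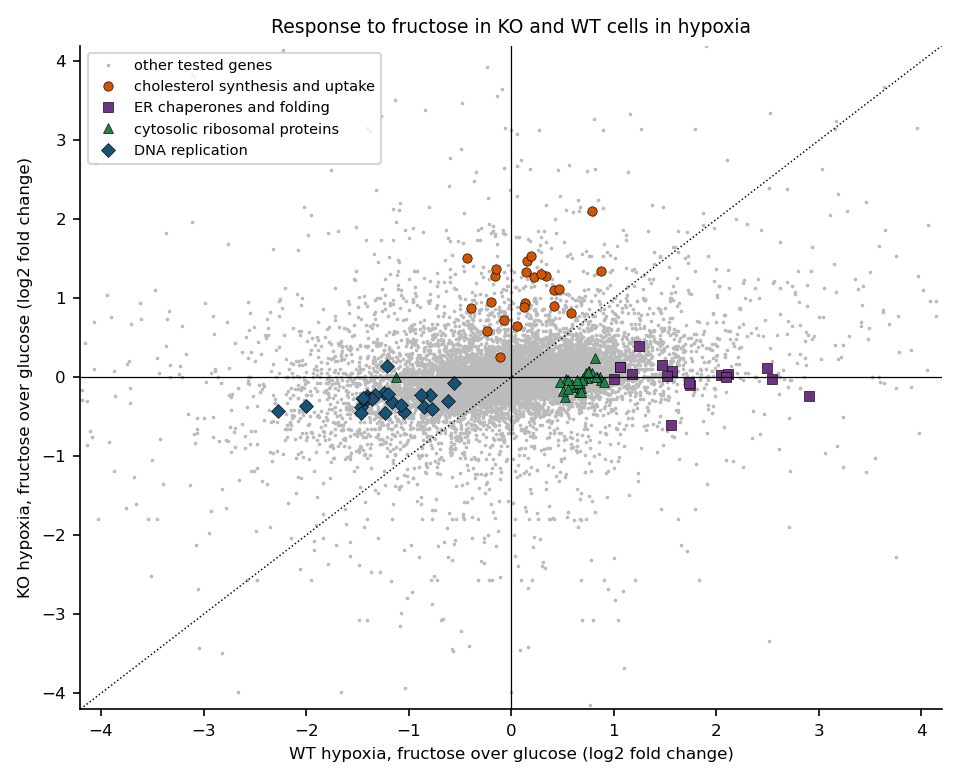
Log2 fold change of fructose over glucose in KO hypoxia (vertical) and WT hypoxia (horizontal), 1 point per tested gene, with 58 genes beyond the axes not drawn and equal responses on the dotted line. Sterol genes lie between 0.26 and 2.11 in KO, while ER chaperones lie right of 0 and DNA replication genes left of 0 in WT, with medians of 0.03 and -0.28 in KO.

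Interferon and lysosome genes gave smaller groups. Of 22 interferon response genes 3 rose in KO, Ifit3, Stat2 and Oasl, while in WT 0 rose and 10 fell. The Oasl call was lost in each of the 6 omissions (adjusted p = 0.057 to 0.208). Ifit3, an antiviral effector, stood at 8.53, 10.8 and 11.6 CPM with fructose and at 4.74, 4.74 and 6.09 CPM with glucose in KO cells (0.99 ± 0.177, adjusted p = 0.000838), and Stat2, the interferon signal factor, rose by 0.50 ± 0.0885. Cxcl10, a chemokine induced by interferon, stood at 86.9, 116 and 117 CPM with fructose and at 56.8, 60.5 and 65.7 CPM with glucose (0.81 ± 0.169). The sugars did not overlap in Ifit3 or Cxcl10, and these genes and Stat2 passed in KO in all 6 omissions. Their differences from WT, 0.77, 0.34 and 0.74 (adjusted p = 0.0215, 0.0445 and 0.0263), were each lost in several of the 12 omissions of a library, with adjusted p up to 0.0705, 0.156 and 0.0731. Of 28 lysosome and autophagy genes 5 rose and 1 fell in KO, and 20 rose and 2 fell in WT. Sqstm1, the autophagy receptor p62, stood at 1295, 1449 and 1257 CPM with fructose and at 869, 889 and 913 CPM with glucose in KO (0.58 ± 0.0959). Npc1, which exports cholesterol from lysosomes, rose by 0.42 ± 0.0749 in KO and by 1.99 in WT.

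**Figure D5:**
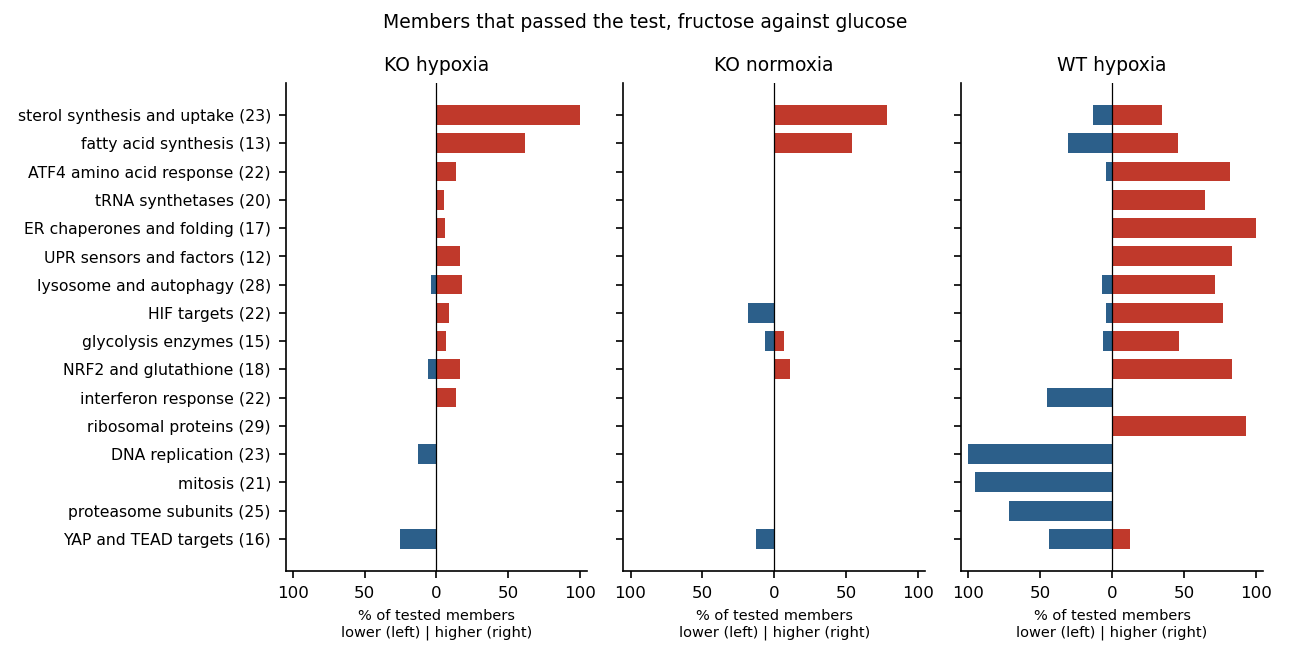
Share of tested members of 16 gene lists that passed higher (right) or lower (left) with fructose, in KO hypoxia, KO normoxia and WT hypoxia, with the number tested in parentheses. Sterol genes reach 23 of 23 higher in KO hypoxia, while ER chaperones reach 17 of 17 higher and DNA replication genes 23 of 23 lower in WT hypoxia.

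Of 8 tested hexose transporters 0 passed in KO hypoxia in the edgeR fit reported, a count near the 5.42% of all genes. Slc2a5, which encodes GLUT5, stood at 32.2, 30.4 and 28.5 CPM with fructose and at 26.7, 13.9 and 18.8 CPM with glucose (0.62 ± 0.202, adjusted p = 0.0794). Glucose library 1 came nearest to the fructose libraries, and without it Slc2a5 passed (adjusted p = 0.0122). With all libraries it passed by DESeq2 (adjusted p = 0.0346) and in edgeR with the replicate number as a block (0.0215). Slc2a5 did not pass under the other alternatives run. Slc2a1, the basal glucose transporter GLUT1, did not pass in KO (0.12 ± 0.112) and rose by 1.60 in WT. Khk, the ketohexokinase, stayed under 1 CPM in every library, with 0.24, 0.434 and 0.401 CPM with fructose and 0.718, 0.242 and 0.754 CPM with glucose. Hk2, the inducible hexokinase, stood at 348, 356 and 332 CPM with fructose and at 275, 286 and 263 CPM with glucose, without overlap, and missed the threshold (0.33 ± 0.0987, adjusted p = 0.0506). It passed by DESeq2 (adjusted p = 0.0228) and in edgeR with RLE factors (0.0485), the 6 KO hypoxia libraries alone (0.0181) or the replicate block (0.000716). Hk2 did not pass with no filter or with any library left out. Pfkfb3 passed in KO (0.35 ± 0.0902, adjusted p = 0.0225), though not without fructose library 2 (0.123) or glucose library 1 (0.0625) or 2 (0.119). Akr1b8, an aldose reductase relative, rose by 0.98 ± 0.214, a call lost without fructose library 2 (0.0512) or glucose library 3 (0.0551). Ldha, the lactate dehydrogenase of glycolysis, did not pass (-0.01 ± 0.093).

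Txnip, an arrestin whose gene is induced by glucose and which limits glucose uptake, stood at 27.9, 20.6 and 30.9 CPM in KO hypoxia fructose and at 48.9, 44.5 and 53.7 CPM in KO hypoxia glucose. In WT hypoxia it averaged 0.72 ± 0.428 CPM with fructose and 82.3 ± 8.14 CPM with glucose (SD, n = 3 each). The fall was 0.89 ± 0.235 in KO, where all fructose libraries were lower, and the responses differed by 5.77 ± 0.43 (adjusted p = 2.09e-08). The KO call (adjusted p = 0.0303) was lost without fructose library 1 (0.0692) or 2 (0.121) or glucose library 1 (0.0844), 2 (0.0635) or 3 (0.0938). Arrdc4, a relative of Txnip in the same list, had 0 counts in all 6 KO hypoxia libraries, where 3 counts would be 0.13 to 0.18 CPM.

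Few genes of KO cells had a response that could be told apart between the oxygen conditions. The response in KO hypoxia differed from that in KO normoxia in 1 gene (0.00677%) by edgeR, while 871 genes (5.9%) had an unadjusted p under 0.05 and DESeq2 called 23. In KO normoxia 265 genes passed (1.79%), 169 higher (1.14%) and 96 lower (0.65%), and 176 of them also passed in KO hypoxia in the same direction, 66.4% of the normoxia genes and 22% of the hypoxia genes. None passed with opposite signs. Of the 801 genes of KO hypoxia 751 had the same sign in KO normoxia, 93.8% beside 62.9% of all genes tested. Their median size of change was 0.25 in KO normoxia and 0.46 in KO hypoxia. These genes were picked because they passed in hypoxia, which favours larger sizes there, so these medians do not compare the oxygen conditions. Hmgcs1 averaged 599 ± 57.2 CPM with fructose and 211 ± 21.9 CPM with glucose in KO hypoxia (SD, n = 3 each). In KO normoxia it averaged 432 ± 7.52 CPM with fructose and 243 ± 16.7 CPM with glucose, a rise of 0.83 ± 0.0963, and the difference between the oxygen conditions, 0.68, did not pass by edgeR (adjusted p = 0.11). It passed by DESeq2 (adjusted p = 0.00239) and in edgeR with the replicate number as a block (0.0185). So did the differences of Acly, 0.51 (3.82e-05 and 0.00578), and Cyp51, 0.57 (0.0088 and 0.0296). In all 23 tested sterol genes the response was more positive in hypoxia, with a median difference of 0.43 (0.15 to 0.73), though 0 passed in the fit reported. The 1 gene that differed in that fit is an unannotated locus without a gene name (chromosome 1, 247848799 to 247859256, minus strand, in Rnor_6.0). It stood at 43, 40.5 and 46.1 CPM in KO hypoxia fructose and at 89.4, 81.1 and 87.7 CPM in KO hypoxia glucose, the sugars being well apart (-1.0 ± 0.101). In KO normoxia it averaged 101 ± 11.7 CPM with fructose and 79.8 ± 8.4 CPM with glucose, and the difference was -1.33 ± 0.141 (adjusted p = 2.21e-05). It passed in each omission of 1 of the 12 libraries.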

How the data were processed

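The sources used here give neither the RNA selection nor the counting program nor its use of strand. Per the labels, RNA and libraries were handled by Novogene, and per the submitters' processing notes HISAT2, DESeq2 and the rat build Rnor_6.0 were used. The authors deposited raw counts per gene, 34523 genes in 24 libraries. Lines left empty numbered 5, and 1978 genes have no name. A column whose name held a stray hyphen was taken as library 3 of WT normoxia glucose. Without strand, genes that overlap on opposite strands cannot be told apart.

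Counts were tested with edgeR 4.0.16 in R 4.3.3 (TMM scaling, robust quasi-likelihood fit over 8 groups, 24 libraries and 16 residual degrees of freedom). Genes were kept by filterByExpr with a minimum count of 10 and a total of 15, which left 14770. Benjamini-Hochberg adjustment ran over all of them, and a standard error is the log2 fold change divided by the square root of F. The common biological coefficient of variation was 0.146. Totals ran from 14344010 to 23028807 counts, and no pair of libraries matched within sampling noise. The program was tested on simulated data. Alternatives were DESeq2 1.42.0, RLE factors, no filter, the 6 libraries alone, a replicate block and leaving out each library.

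The members and the 38 pathway and 6 marker lists (761 of 782 symbols matched, 15 through an older symbol or identifier) were chosen with earlier results of these data known. The first named genes were taken among those with separate groups, a mean log2 CPM from 1 upward and no predicted-locus, clone or Ensembl name. They were the 12 highest and 12 lowest that passed, and the 8 highest and 8 lowest that passed in KO and in the difference and not in WT. To these came the 4 highest and 4 lowest between oxygen conditions, up to 4 members per list and a set of genes given whatever their value. Further genes, among them the other sterol genes, the junction and contractile genes and the keratin family, were named after their values were seen. Some list members are not reported by name here.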

Additional observations from a re-analysis of the deposited data

Results flagged for a closer look

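The response to fructose in hypoxia differed between KO and WT cells, by a test of the difference itself (edgeR's quasi-likelihood test), in 3785 genes, among them many of those named above. The values are log2 differences, the KO response minus the WT response. A positive value means a more positive response in KO cells. Among sterol genes they were Hmgcs1 1.93, Dhcr7 1.52, Idi1 1.44, Hsd17b7 1.34, Tm7sf2 1.33, Mvd 1.31, Fdft1 1.28, Sc5d 1.19, Lss 1.05, Nsdhl 1.02, Cyp51 0.94, Fdps 0.81, Stard4 0.81, Mvk 0.80, Insig1 0.78, Pmvk 0.69, Sqle 0.65, Ebp 0.47, Msmo1 0.46 and Srebf2 0.36. Among other lipid genes they were Acss2 2.16, Acat2 2.13, Fads2 1.45, Scd1 1.18, Mmab 0.94, Acsl3 0.84, Lpin1 0.79, Slc25a1 0.60, Pcyt2 0.49 and Scd2 0.36.

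Of the remaining named genes with a positive difference, some had fallen less in KO than in WT and others passed in KO and not in WT. Their values were Txnip 5.77, Cfap70 3.74, Unc13a 1.39, Cgnl1 1.33, Tnnc1 1.27, Tyms 1.08, Mcm2 0.78, Ifit3 0.77, Cxcl10 0.74, Col1a1 0.69, Tead4 0.59, the unannotated locus on chromosome 1 0.57, Pola2 0.51, Fgf1 0.46, Smtn 0.41 and Stat2 0.34. Negative differences were found in genes that rose less in KO than in WT, fell further in KO, or moved in opposite directions. Their values were Myl9 -3.22, Hspa5 -2.36, Avil -2.21, Hsp90b1 -2.02, Star -1.77, Klf4 -1.71, Npc1 -1.57, Slc2a1 -1.48, Akr1b8 -1.36, Ddit3 -1.36, Atf6 -1.34, Cnn2 -1.33, Ppp1r3b -1.22, Col14a1 -1.18, Ero1l -1.12, Sqstm1 -1.04, Nqo1 -1.0, Hspb8 -1.0, Hk2 -1.0, Slc7a11 -0.99, Slc24a3 -0.97, Vimp -0.96, Pfkfb3 -0.94, B3gnt7 -0.92, Mmp19 -0.85, Dnajb9 -0.85, Aif1l -0.83, Vegfa -0.81, Ern1 -0.78, Arnt2 -0.76, Klhl30 -0.75, Cldn15 -0.72, Rassf7 -0.71, Rpl3 -0.70, Rgs7bp -0.61, Ctsl -0.60, Sesn2 -0.60, Sars -0.59, Ahrr -0.57, Tpm1 -0.41, Igfbp6 -0.41 and Slc16a1 -0.34.

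For 14 of these genes the difference did not pass under some of the alternatives run. The number of alternatives without a call, and the highest adjusted p by edgeR or DESeq2, were Ahrr in 3 (up to 0.0918), Arnt2 in 10 (up to 0.157), Cfap70 in 9 (up to 0.332), Cxcl10 in 7 (up to 0.0731), Ebp in 9 (up to 0.142), Fgf1 in 10 (up to 0.159), Ifit3 in 5 (up to 0.0705), Igfbp6 in 10 (up to 0.121), Lpin1 in 6 (up to 0.169), Nqo1 in 8 (up to 0.13), Rgs7bp in 7 (up to 0.0965), Scd2 in 6 (up to 0.103), Slc16a1 in 5 (up to 0.0903) and Stat2 in 8 (up to 0.156).

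Between KO hypoxia and KO normoxia the response differed in 1 gene, the unannotated locus on chromosome 1, by -1.33.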

How the results depend on the processing

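The number of genes that passed in KO hypoxia, 801, was 802 with RLE factors, 697 with no filter and 774 with the 6 libraries alone, and DESeq2 called 1088, of which 798 were among the 801. At least 2-fold changes numbered 122, with 82 higher and 40 lower. Leaving out 1 library gave 455 to 635 genes, 217 to 319 higher and 238 to 316 lower. With the replicate number as a block 1543 genes passed, 730 higher and 813 lower, and 799 of the 801 were among them. Fructose and glucose libraries that share a number correlated at 0.071, 0.147 and 0.162 in KO hypoxia in their deviations from the group means. The values were 0.049, 0.108 and 0.076 in WT hypoxia and 0.057, 0.069 and 0.104 in KO normoxia. In each of these conditions every library correlated best with its own number. This comes from the data, and the labels do not say that the numbers mark a shared batch. No pairing was assumed in the fit reported. DNA replication genes that fell numbered 14 of 23 under the block and 8 with the 6 libraries alone, against 3 in the fit reported. The difference between KO and WT was called in 3227 to 4735 genes over all alternatives, with DESeq2 at 4059 and the block at 4735. The difference between oxygen conditions was called in 23 genes by DESeq2, 7 higher and 16 lower, and in 15 with the block, 5 higher and 10 lower. Under the alternatives run, no called value among the results tabulated changed sign. Among named genes tested for KO hypoxia, 141 of the values with a library left out no longer passed, while 668 kept their side of the threshold and 1 newly passed. The cause of these shifts was not tested. With 3 libraries a group, small changes and genes of low counts are the least certain.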

Other observations

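Targets of the aryl hydrocarbon receptor, a sensor of aromatic compounds, were looked at after their values were seen. Of 6 tested, 4 rose with fructose in KO hypoxia and 0 fell, with a median of 1.01, while 2.69% of all genes tested rose and 2.73% fell. Besides Cyp1b1 the 4 were Nqo1, a quinone reductase, Tiparp, a feedback inhibitor of the receptor, and Ahrr, its repressor. Nqo1 stood at 280, 308 and 244 CPM with fructose and at 188, 94.4 and 97.7 CPM with glucose (1.13, adjusted p = 0.0101, edgeR). Tiparp stood at 75.6, 70.9 and 80.8 CPM with fructose and at 48.6, 40.2 and 44.2 CPM with glucose (0.77, adjusted p = 1.72e-06). Ahrr stood at 56.2, 61.7 and 63.3 CPM with fructose and at 52.1, 33.5 and 40.8 CPM with glucose (0.52, adjusted p = 0.0129). The others tested, Aldh3a1 and Cyp1a1, count in the median but stayed under 1 CPM in all 6 KO hypoxia libraries. In WT hypoxia Aldh3a1 fell, by 0.89. The 4 genes also rose in WT hypoxia and in KO normoxia. The rises there were 2.12 and 1.99 for Nqo1, 1.03 and 0.99 for Tiparp, 1.09 and 0.88 for Ahrr and 1.87 and 3.13 for Cyp1b1. Glucose library 1 was the highest of the glucose libraries in all 4 genes and in Adh7. Without glucose library 2 the adjusted p was 0.0665 for Nqo1 and 0.114 for Ahrr, and without glucose library 3 it was 0.0567 and 0.0623. Ahrr was also lost without fructose library 3 (0.0558). With the 6 KO hypoxia libraries alone neither Nqo1 (0.168) nor Ahrr (0.0746) passed.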
